A study of Mus musculus with 4 samples.

Results

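The genes described here encode the subunits of voltage-gated sodium channels (Scn), voltage-gated calcium channels (Cacn) and hyperpolarization-activated cyclic nucleotide-gated channels (Hcn) in mouse striatum. They were taken by symbol from the deposited expression table (an Scn number followed by a or b, the prefixes Cacna, Cacnb and Cacng, and Hcn followed by a number), kept where the deposited values averaged 10 or more over the 46 libraries. The rule gave 38 genes of the 19561 that reached this mean, and of 25259 in the table. It matched 43 symbols in all, and the 5 below the mean, Cacng6, Cacna1f, Scn4a, Scn10a and Scn11a, were not tested. The 38 genes were 6 sodium channel alpha subunits, 4 sodium channel beta subunits, 9 calcium channel alpha1 subunits, 4 alpha2delta, 4 beta and 7 gamma subunits, and 4 HCN channel subunits. Scn2a1, the symbol under which the table lists the sodium channel alpha subunit Nav1.2, does not have the form that the rule takes, and is given beside the members only where it completes the picture.

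There were 4 groups to compare, all of C57BL/6 mice 8 weeks old. Dorsomedial striatum (DMS) of Foxp2hum/hum mice gave 12 libraries and dorsolateral striatum (DLS) of Foxp2hum/hum mice gave 12, while wild-type mice gave 11 libraries of DMS and 11 of DLS. Both Foxp2 copies of Foxp2hum/hum mice are humanised, and Foxp2 encodes a transcription factor of the forkhead family. The tissue was cut out by laser capture, so that each library holds all the cells of the captured area, and 15 ng of total RNA went into each library. The labels do not tie a library to an animal or a flow cell, so the p-values measure the spread between libraries, and it cannot be told from them whether both regions of 1 animal were sequenced.

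Sodium channels open on depolarization and carry the upstroke of the action potential; the alpha subunit forms the pore, and the beta subunits are membrane proteins that set its gating and placement. Calcium channels turn depolarization into calcium entry; the alpha1 subunit forms the pore, the cytoplasmic beta subunit and the extracellular alpha2delta subunit bring it to the membrane, and several gamma subunits act instead as auxiliary proteins of AMPA-type glutamate receptors. HCN channels open on hyperpolarization and are tuned by cyclic AMP. In striatum, most neurons are medium spiny projection neurons, and the firing of these and of the local interneurons depends on the mix of these subunits.

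Many of the members differed between the regions in the same direction, and no link of this to Foxp2 was tested. The stretch around the start of 4 members is shown before the values: Scn4b and Hcn2, Scn1a, which separated the regions without overlap, and Scn7a, which went the opposite way. Each runs from 250 bases before to 50 bases after the annotated start, 5′ to 3′ on the strand of the gene, from RefSeq on GRCm38.p6, a later build than the mm9 of the expression data. Capitals mark the searched letters that a script found: a GC box (GGGCGG, read as CCGCCC on the other strand) in Hcn2 and Scn7a, and TATTTNT, a relaxed form of the core sequence reported for FOXP2, in Scn1a.
Scn4b (chr9:45138374-45138673, plus strand): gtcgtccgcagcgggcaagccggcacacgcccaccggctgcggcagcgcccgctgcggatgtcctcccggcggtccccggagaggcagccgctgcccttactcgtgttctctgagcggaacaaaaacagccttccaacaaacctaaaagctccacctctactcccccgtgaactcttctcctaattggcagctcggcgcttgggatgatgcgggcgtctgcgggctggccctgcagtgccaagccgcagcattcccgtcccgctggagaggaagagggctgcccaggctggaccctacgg
Hcn2 (chr10:79716384-79716683, plus strand): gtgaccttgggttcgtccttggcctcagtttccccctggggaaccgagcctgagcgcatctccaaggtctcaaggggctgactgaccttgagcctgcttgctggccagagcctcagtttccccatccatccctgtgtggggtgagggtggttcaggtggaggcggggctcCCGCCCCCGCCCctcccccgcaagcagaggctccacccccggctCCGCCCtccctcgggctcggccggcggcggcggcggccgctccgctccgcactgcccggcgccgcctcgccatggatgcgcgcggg
Scn1a (chr2:66440788-66441087, minus strand): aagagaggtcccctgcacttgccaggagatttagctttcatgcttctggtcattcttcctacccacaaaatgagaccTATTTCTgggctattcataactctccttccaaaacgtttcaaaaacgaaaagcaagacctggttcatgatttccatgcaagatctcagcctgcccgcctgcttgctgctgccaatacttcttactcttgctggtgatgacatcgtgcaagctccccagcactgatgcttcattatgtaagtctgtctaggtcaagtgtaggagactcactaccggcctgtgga
Scn7a (chr2:66784861-66785160, minus strand): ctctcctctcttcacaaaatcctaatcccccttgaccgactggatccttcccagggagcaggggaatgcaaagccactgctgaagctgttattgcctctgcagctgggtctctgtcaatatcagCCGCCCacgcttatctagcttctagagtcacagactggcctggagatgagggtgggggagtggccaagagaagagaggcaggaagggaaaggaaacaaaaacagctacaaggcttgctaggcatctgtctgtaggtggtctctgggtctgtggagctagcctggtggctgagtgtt

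RefSeq gave 36 such promoters for 26 of the 38 members. A GC box on either strand was present in 17 of the 36, against 35.7% of 32851 mouse promoters of the same length. TATTTNT was found in 1 of the 36, against 18.4% of all promoters, and a TATA box (TATAAA) in 1, that of Cacna1d, against 13.6%. Neither the forkhead core TGTTTAC, present in 3.65% of all promoters, nor the left part of the repressor element RE1, TTCAGCACC, present in 0.371%, was found in any of the 36. The median GC content was 62.4% over the member promoters and 52.7% over all promoters. These counts describe the letters in these windows and carry no information on binding.

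The deposited value is a normalised read count: the reads of a gene divided by a DESeq size factor of the library. Depth ran from 16.79 to 41.01 M recovered reads per library, with a median of 23.22 M. Medium spiny neuron markers were all detected, and the sum of the 9 on the list had a median of 112600 in Foxp2hum/hum DMS, 157400 in Foxp2hum/hum DLS, 114500 in wild-type DMS and 167200 in wild-type DLS, with no overlap between the regions in either genotype. The oligodendrocyte marker sum was close in the 4 groups (median 104400 in Foxp2hum/hum DMS, 110500 in Foxp2hum/hum DLS, 111200 in wild-type DMS and 102100 in wild-type DLS). Foxp2 itself was read in all groups, with medians of 1290 in Foxp2hum/hum DMS, 1020 in Foxp2hum/hum DLS, 1440 in wild-type DMS and 1110 in wild-type DLS, which does not tell the alleles apart. Markers of ependyma and of migrating neuroblasts, which line and border the lateral ventricle next to DMS, were higher in DMS, without overlap in either genotype: the ependyma sum had a median of 551.7 in Foxp2hum/hum DMS against 69.15 in DLS, and 415.7 in wild-type DMS against 68.54 in DLS. In tissue of this kind, fewer cells of a type and less RNA per cell cannot be told apart.

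Levels of different subunits were set against each other per kb of exon, over all 46 libraries. Scn4b, the gene of the beta4 subunit, which is abundant in medium spiny neurons and linked to resurgent sodium current, stood at 3693 normalised reads per kb, the highest of the 38 genes. Scn2b stood at 1166 and Scn3b at 487.9. Of the pore-forming sodium channel subunits in the rule, Scn8a (Nav1.6, the main channel of the axon initial segment) had the highest level at 192.7 per kb, below Scn2a1, outside the rule, at 270.9. It was followed by Scn1a (Nav1.1, prominent in fast-spiking interneurons) at 88.8 and Scn3a (Nav1.3) at 71.8. Scn9a (Nav1.7) stood at 18.3 and Scn7a (Nax, a sodium-sensing relative found in glia) at 2.54 per kb. The levels of Scn2b and Scn9a cannot be told apart from those of the overlapping Gm10684 and Gm13629, whose means were 100.15% and 97.58% of theirs.

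Among calcium channel pores the order per kb was headed by Cacna1i (Cav3.3, low-voltage-activated) at 130.3, followed by Cacna1h (Cav3.2) at 101.6, Cacna1e (Cav2.3, R-type) at 94.5 and Cacna1a (Cav2.1, P/Q-type) at 88.7. Cacna1c and Cacna1d, the L-type channels of brain, stood at 61.3 and 29.1, Cacna1b (Cav2.2, N-type) at 49.02, Cacna1g (Cav3.1) at 5.75, and Cacna1s, the channel of skeletal muscle, was the lowest at 1.76. Cacna2d3 led the alpha2delta subunits with 1306 per kb and Cacna2d1 was the lowest with 135.0. Cacnb3 led the beta subunits with 645.5 and Cacnb4 was the lowest with 282.6, a value that cannot be told apart from that of the overlapping A430018G15Rik, which stood at 65.9% to 81.3% of it. Of the gamma subunits, Cacng3 (1101), Cacng4 (818.9) and Cacng7 (762.3) were the highest, and Cacng5 (21.6) the lowest. The leader of the alpha1, alpha2delta and gamma classes changed with the length used: per kb of gene span, Cacna1h (16.72) stood above Cacna1i (11.57), Cacna2d4 (12.4) and Cacna2d2 (6.635) above Cacna2d3 (5.902), and Cacng7 (48.52) and Cacng4 (47.07) above Cacng3 (17.17), and of the beta subunits Cacnb2 (7.68) and not Cacnb4 (10.16) was the lowest. The value of Cacna2d4 cannot be told apart from that of the overlapping Lrtm2, which stood at 93.3% to 99.4% of it. Hcn2 reached 795.0 per kb of exon, against 22.5 for Hcn3 and 5.68 for Hcn4.

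HCN messages were thus nearly all Hcn2: its share of the class per exonic kb was 92.5 ± 1.98% in Foxp2hum/hum DMS (SD, n = 12), 95.4 ± 0.903% in Foxp2hum/hum DLS (n = 12), 92.4 ± 1.74% in wild-type DMS (n = 11) and 94.8 ± 0.4995% in wild-type DLS (n = 11). The 5 genes below the mean of 10 were low in all groups, with a highest group mean of 7.984, for Scn11a in wild-type DLS. Their highest single value was 29.02 normalised reads, for Scn11a in a Foxp2hum/hum DLS library.

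The first comparison asked which subunits differ between DMS, the associative part of the dorsal striatum, and DLS, its sensorimotor part. In both genotypes, 13 of the 38 members were lower in DMS, and 1, Scn7a, was higher. Calls in either direction numbered 16 of 38 in Foxp2hum/hum, beside 18.1% of all genes tested, and 15 of 38 in wild-type, beside 17.3%. In Foxp2hum/hum mice 2 members were higher and 14 lower in DMS, against a background of 9.33% and 8.82% of all genes tested. In wild-type mice 1 was higher and 14 lower, against 8.54% and 8.72%. As shares, 34.2% of the members were lower in both genotypes, while 6.67% of all genes were, and 2.63% of the members were higher in both, while 6.36% of all genes were. The 13 lower in both include Scn2b and Cacna2d4, whose values cannot be told apart from those of the overlapping Gm10684 and Lrtm2. They also include Cacna2d3 and Cacnb2, whose spans hold other counted genes. The median log2 difference of the members, DMS minus DLS, was -0.24 in Foxp2hum/hum and -0.32 in wild-type, beside 0.02 and 0.01 over all genes tested. A member was called where limma gave an adjusted p under 0.05 over all 19561 genes. At an unadjusted p under 0.05 there were 20 members in Foxp2hum/hum (28.8% of all genes), 22 in wild-type (28.4%) and 27 over both genotypes together (40.8%).

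**Figure D1:**
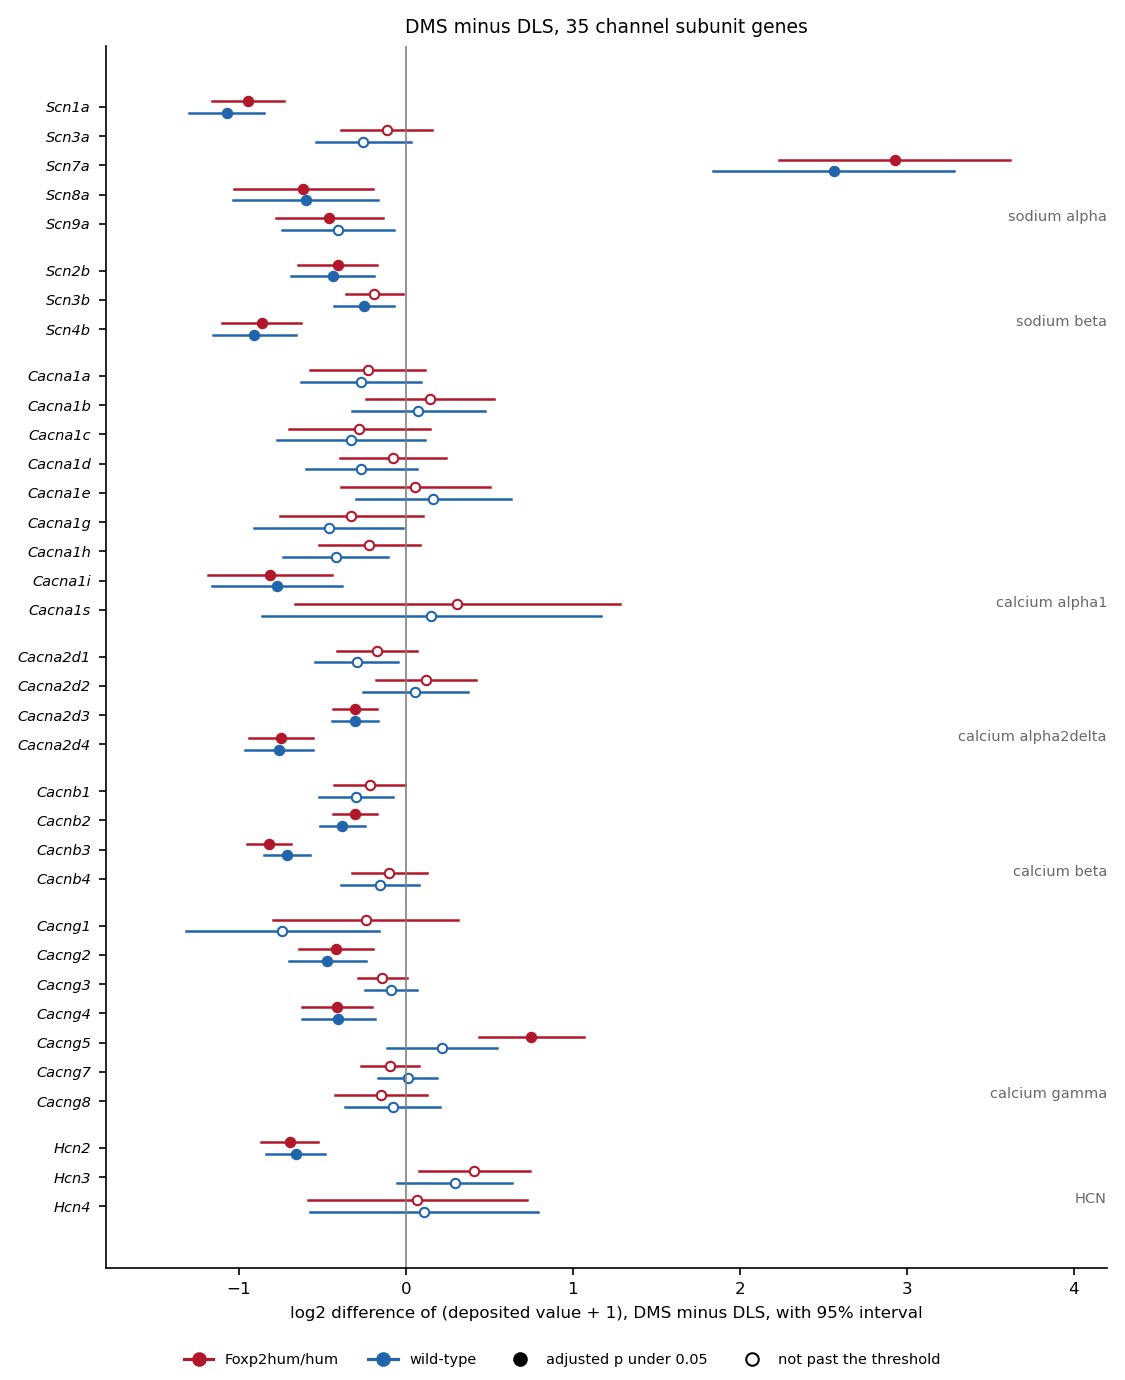
Difference between DMS and DLS for 35 of the 38 channel subunit genes, as log2 of the deposited value plus 1, with its 95% interval, in Foxp2hum/hum (red) and wild-type mice (blue). Filled points have an adjusted p under 0.05; 12 of those drawn lie to the left of 0 with filled points in both genotypes, and Scn7a is the one gene to the right of 0 with filled points in both.

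Scn4b was the most abundant member and among those with the largest difference between the regions. In Foxp2hum/hum mice, Scn4b ran from 7876 to 16090 normalised reads with a median of 12370 in DMS, against 14760 to 27900 with a median of 23400 in DLS. In wild-type mice, Scn4b ran from 8263 to 18330 (median 12900) in DMS, against 16190 to 34960 (median 24940) in DLS. All but 1 of the Foxp2hum/hum DMS libraries were below every DLS library, and in wild-type 9 of 11 were. The level in DMS was 1.82-fold lower in Foxp2hum/hum (log2 difference -0.87 ± 0.12, SE; limma, adjusted p = 1.18e-07) and 1.88-fold lower in wild-type (-0.91 ± 0.12; adjusted p = 1.18e-07).

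Scn2b, a beta subunit linked to the pore by a disulfide bond, was lower in both genotypes as well and moved less. Its medians were 4524 in Foxp2hum/hum DMS against 5782 in DLS, and 4744 in wild-type DMS against 6499 in DLS, and the log2 differences were -0.41 and -0.44 (limma, adjusted p = 0.00911 and 0.0078). The value of Scn2b cannot be told from that of the overlapping Gm10684, whose mean was 100.15% of it, and both calls of Scn2b ended under quantile normalisation (adjusted p = 0.107 in Foxp2hum/hum and 0.0897 in wild-type). Scn3b was called in wild-type (-0.25 ± 0.09, adjusted p = 0.0416), while Foxp2hum/hum gave -0.19 ± 0.09 (adjusted p = 0.125). The call of Scn3b ended under quantile normalisation (adjusted p = 0.176), with Ttr as a covariate (0.0771), with only the groups compared in the fit (0.0963), with edgeR (0.064) and when any 1 of 11 libraries was left out (up to 0.112). The regional difference did not differ significantly between the genotypes (limma, interaction 0.06, adjusted p = 1). Within the class, the share of Scn4b per exonic kb was 48.1 ± 3.83% in Foxp2hum/hum DMS against 55.7 ± 4.88% in DLS, and 48.2 ± 3.33% in wild-type DMS against 55.98 ± 4.37% in DLS (SD, n = 12, 12, 11 and 11).

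**Figure D2:**
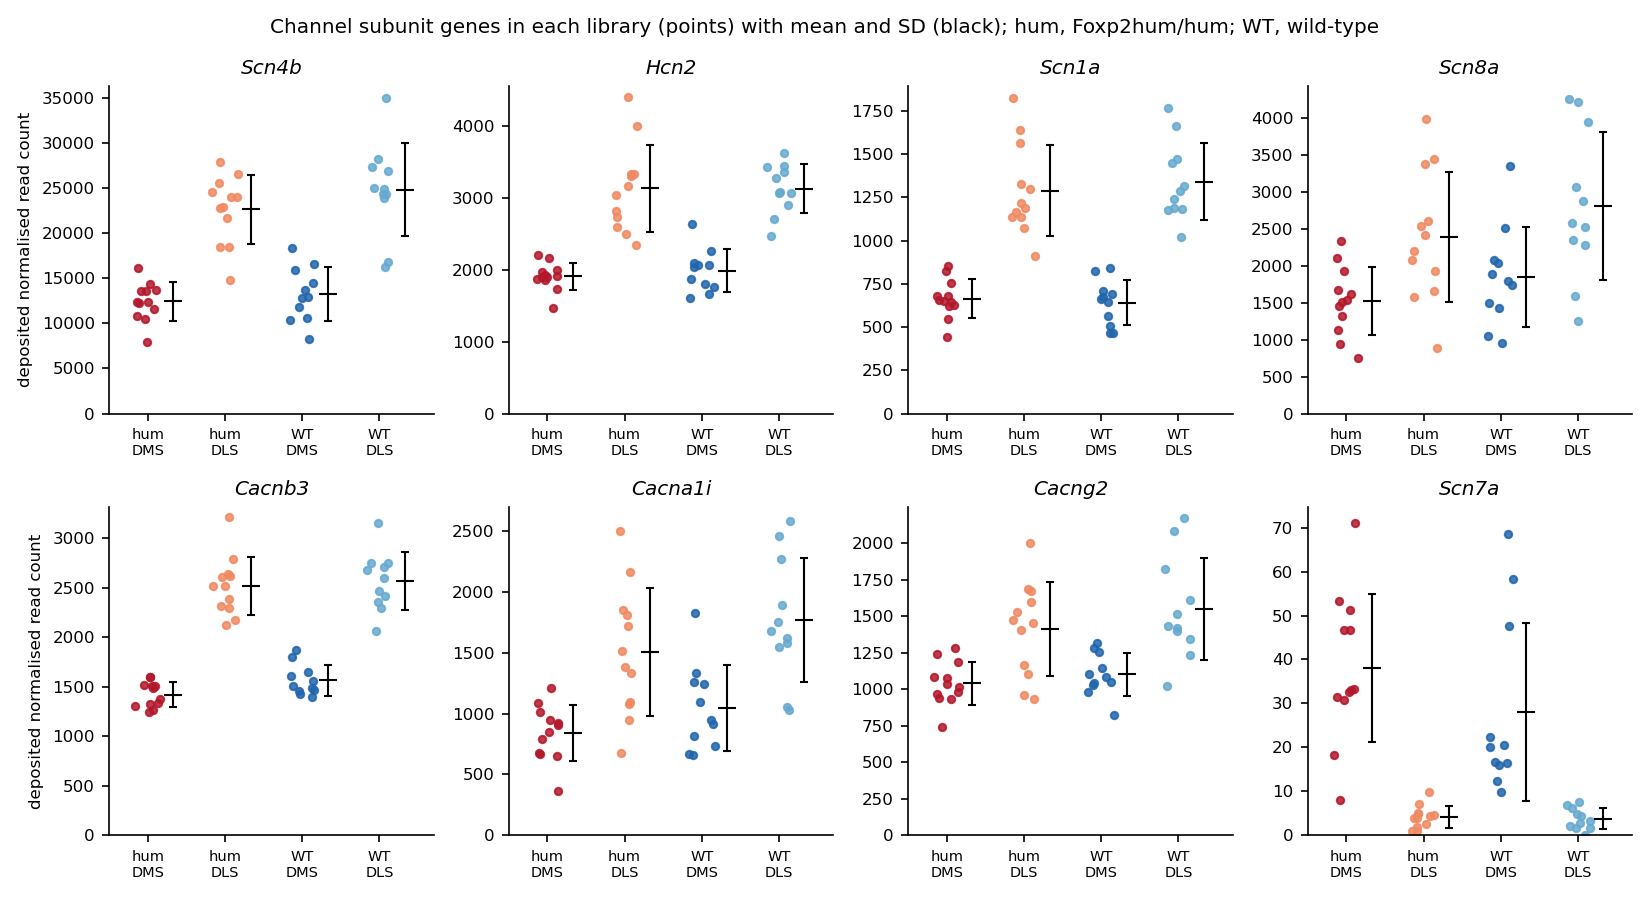
Deposited normalised read count of 8 members in each library (points, 1 per library), with mean and SD in black; hum, Foxp2hum/hum (12 libraries of DMS and 12 of DLS); WT, wild-type (11 and 11). Scn1a and Cacnb3 do not overlap between DMS and DLS in either genotype, Scn8a and Cacna1i overlap widely, and Scn7a is the one gene here with the DMS libraries on top.

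Of the sodium channel pores, Scn1a showed the clearest split. In Foxp2hum/hum mice, Scn1a had 440.4 to 853.8 normalised reads in DMS (median 651.8), against 909.6 to 1825 in DLS (median 1202). In wild-type mice, Scn1a had 467.7 to 840.2 in DMS (median 662.3), against 1020 to 1767 in DLS (median 1284). Every DMS library was therefore below every DLS library of its genotype, a separation in this direction that 1.15% of all genes tested showed in Foxp2hum/hum and 1.02% in wild-type. The log2 differences were -0.95 ± 0.11 in Foxp2hum/hum and -1.07 ± 0.11 in wild-type (limma, adjusted p = 1.1e-09 and 1.25e-10). Scn1a lies on chromosome 2 (mm9, chr2:66108838-66278897).

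Scn8a, the most abundant per kb of the 6 pores that the rule takes, was also lower in DMS, with far more spread. Its medians were 1521 in Foxp2hum/hum DMS against 2305 in DLS, and 1789 in wild-type DMS against 2571 in DLS, and the ranges overlapped in both genotypes (753.0 to 2328 against 890.0 to 3975, and 946.9 to 3346 against 1248 to 4253). The log2 differences were -0.61 ± 0.21 and -0.60 ± 0.22 (limma, adjusted p = 0.0293 in Foxp2hum/hum and 0.0458 in wild-type). Both calls of Scn8a ended under quantile normalisation (adjusted p = 0.0576 and 0.0803) and with Ttr, a choroid plexus marker, as a covariate (0.0873 and 0.0714). In Foxp2hum/hum the call also ended when library 64, 67, 74, 83 or 94 was left out (adjusted p from 0.057 to 0.0656), and in wild-type with no filter on low values (0.0523) and when any 1 of 15 of the libraries was left out (adjusted p up to 0.102). Scn9a was called in Foxp2hum/hum (-0.46 ± 0.16, adjusted p = 0.0349), while wild-type gave -0.41 ± 0.17 (adjusted p = 0.0869); its mean cannot be told from that of the overlapping Gm13629 (97.58% of it), and the call ended with Ttr as a covariate (adjusted p = 0.0755) and when any 1 of 9 libraries was left out (adjusted p up to 0.0809). Scn3a was not called in any of the 3 regional contrasts, and Scn2a1, outside the rule, had -0.37 ± 0.13 in Foxp2hum/hum (adjusted p = 0.0439) and -0.31 ± 0.14 in wild-type (adjusted p = 0.125). Among the 6 alpha subunits of the rule, the share of Scn1a was 21.1 ± 2.41% in Foxp2hum/hum DMS against 27.6 ± 3.76% in DLS, and that of Scn3a 24.3 ± 2.05% against 17.8 ± 2.06% for the same groups. Wild-type mice gave 19.1 ± 3.499% against 26.2 ± 3.95% for Scn1a and 20.9 ± 2.10% against 16.3 ± 1.60% for Scn3a. Per kb of gene span instead of exon, the mean share of Scn1a was below that of Scn3a in both regions, in DLS too (17.7% against 19.93% in Foxp2hum/hum and 16.62% against 18.03% in wild-type), so the order of these genes rests on the length used.

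**Figure D3:**
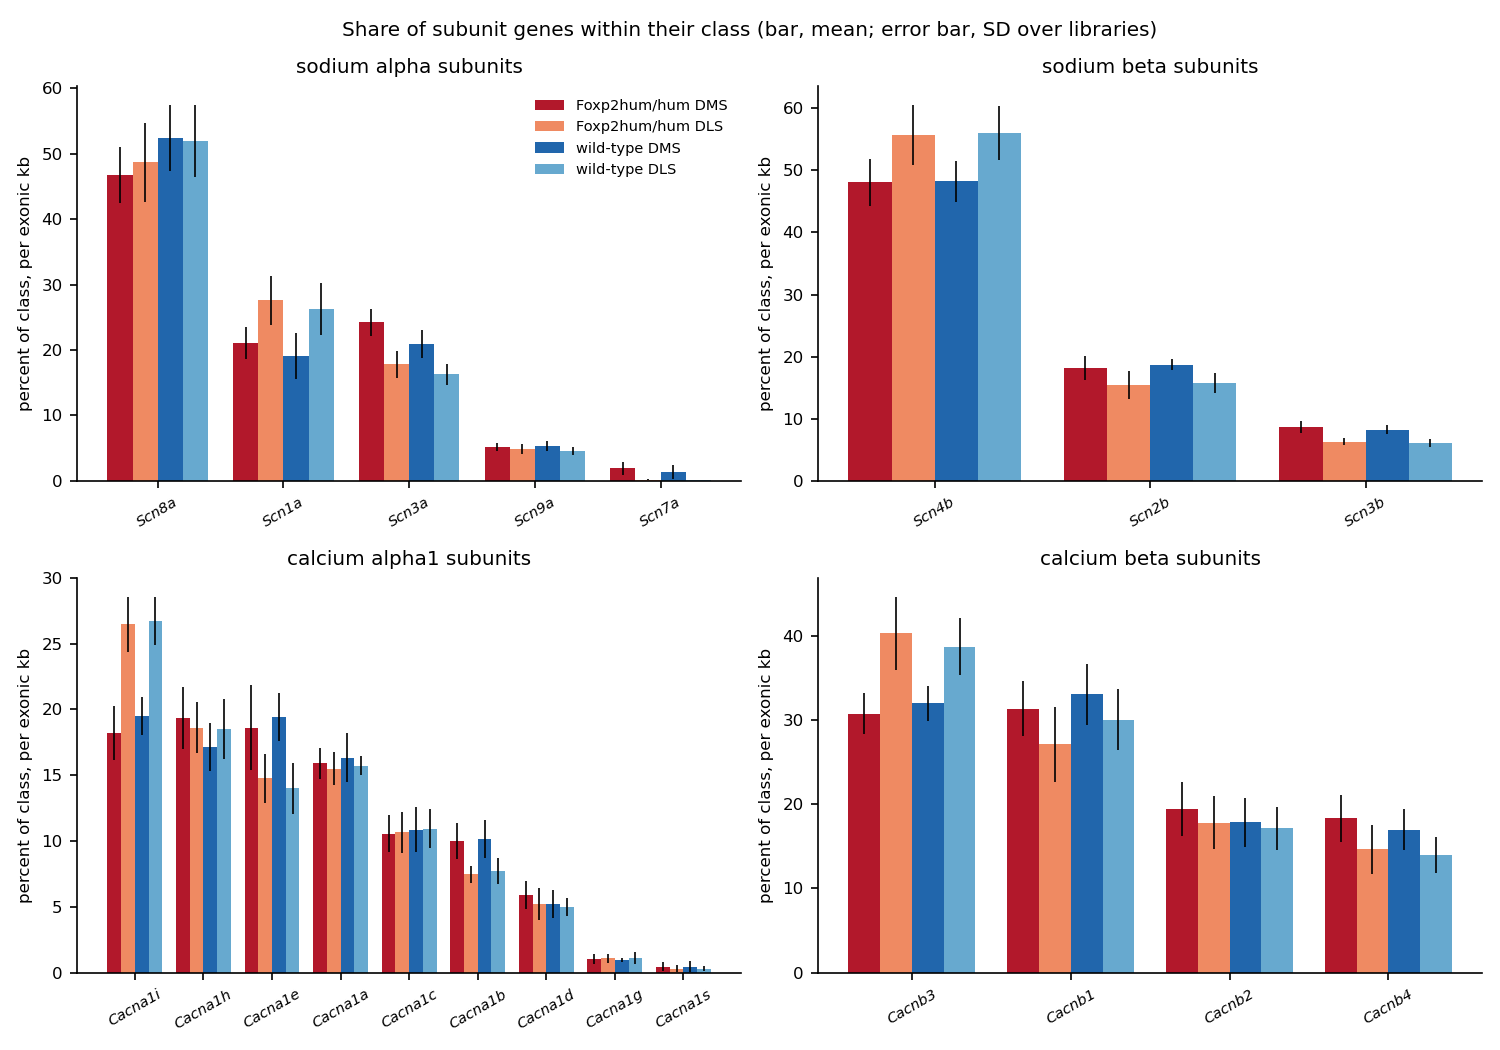
Share of genes in the summed level of their class, per kb of exon, for the sodium channel alpha and beta and the calcium channel alpha1 and beta subunits (bars, mean; error bars, SD over 12, 12, 11 and 11 libraries). Scn2a1 is not counted. Scn4b, Scn1a, Cacna1i and Cacnb3 take a smaller share in DMS than in DLS in both genotypes (Scn4b 48.1% against 55.7% in Foxp2hum/hum).

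Scn7a was the 1 member higher in DMS in both genotypes. It encodes Nax, which does not open with voltage and senses extracellular sodium in glia. In Foxp2hum/hum mice, Scn7a ran from 8.03 to 71.1 normalised reads in DMS (median 33.2), against 0.991 to 9.85 in DLS (median 4.16). In wild-type mice, Scn7a ran from 9.73 to 68.6 in DMS (median 20.1), against 0 to 7.57 in DLS (median 3.22). The wild-type regions did not overlap, as for 0.93% of all genes in this direction (1.06% in Foxp2hum/hum), and in Foxp2hum/hum 11 of 12 DMS libraries were above every DLS library. The log2 differences were 2.93 ± 0.34 and 2.56 ± 0.36 (limma, adjusted p = 3.07e-09 and 2.47e-07), at levels of a few reads in DLS. Scn7a reached the mean of 10 only through DMS (group means of 38.05 in Foxp2hum/hum DMS, 4.148 in Foxp2hum/hum DLS, 28.05 in wild-type DMS and 3.735 in wild-type DLS), so that a gene selected in this way had to differ, and its call is given as a description. All 4 ependyma markers were also higher in DMS in both genotypes, and the most region-bound of them, Ccdc153, had medians of 167 in Foxp2hum/hum DMS against 1.67 in DLS, and 143 in wild-type DMS against 0 in DLS. Of the 5 neuroblast markers 4 were higher and 1, Dlx6, lower; the neuroblast sum had a median of 1510 in Foxp2hum/hum DMS against 771.8 in DLS, and 1350 in wild-type DMS against 817.9 in DLS. The choroid plexus sum ran from 226.6 to 6768 in Foxp2hum/hum DMS against 99.63 to 253.5 in DLS, and from 190.3 to 10590 in wild-type DMS against 115.7 to 329.6 in DLS. Of the astrocyte list, Gfap (log2 0.9952 and 0.9154) and Gja1 (0.39 and 0.43) were higher in DMS in Foxp2hum/hum and wild-type, and the other 4 genes were not called. The part of these cells in the difference of Scn7a was not tested beyond the fit with Ttr and Ccdc153 as covariates, in which Scn7a stood at 1.83 ± 0.87 in Foxp2hum/hum and 1.34 ± 0.96 in wild-type (adjusted p = 0.256 and 0.425).

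Calcium channel pores showed 1 member lower in both genotypes. Cacna1i, a T-type channel that opens near rest, had a median of 877.8 normalised reads in Foxp2hum/hum DMS (359.7 to 1212) against 1448 in DLS (675.9 to 2503). Wild-type libraries of Cacna1i had a median of 949.1 in DMS (657.1 to 1827) against 1682 in DLS (1032 to 2584). The ranges overlapped in both genotypes, and the log2 differences were -0.81 ± 0.18 and -0.77 ± 0.19 (limma, adjusted p = 0.000813 and 0.00257). The share of Cacna1i among the 9 alpha1 genes was 18.2 ± 2.07% in Foxp2hum/hum DMS against 26.5 ± 2.09% in DLS, and 19.5 ± 1.45% in wild-type DMS against 26.8 ± 1.83% in DLS. Its T-type relatives were called only over both genotypes together: Cacna1h had -0.32 ± 0.11 (adjusted p = 0.0187) and Cacna1g -0.39 ± 0.15 (adjusted p = 0.0435). The call of Cacna1h ended with Ttr as a covariate (adjusted p = 0.0749), and that of Cacna1g with Ttr (0.0719), with no filter on low values (0.0543) and when any 1 of 21 libraries was left out (up to 0.0773). The 6 other alpha1 genes were not called in any regional contrast. Of those with a mean above 200, Cacna1c (-0.28 and -0.33), Cacna1a (-0.23 and -0.27) and Cacna1d (-0.08 and -0.27) had negative log2 differences in Foxp2hum/hum and wild-type, and Cacna1b (0.15 and 0.07) and Cacna1e (0.06 and 0.16) positive ones. The reads of Cacna1d and Cacna1c cannot be told apart from those of overlapping genes. The mean of Dcp1a was 75.23% of that of Cacna1d, and the mean of Chdh, which also overlaps Cacna1d, was 24.29% of it. The mean of Dcp1b was 39.32% of that of Cacna1c, and Dcp1a was no higher than Cacna1d in 41 of 46 libraries.

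Among the auxiliary calcium channel subunits, Cacnb3 separated the regions as cleanly as Scn1a. This beta subunit ran from 1246 to 1595 normalised reads in Foxp2hum/hum DMS (median 1428), against 2118 to 3211 in DLS (median 2516). In wild-type mice, Cacnb3 ran from 1393 to 1866 in DMS (median 1508), against 2063 to 3152 in DLS (median 2596). No DMS library reached a DLS library in either genotype, and the log2 differences were -0.82 ± 0.07 and -0.71 ± 0.07 (limma, adjusted p = 2.29e-14 and 1.06e-11). The share of Cacnb3 among the 4 beta genes was 30.8 ± 2.45% in Foxp2hum/hum DMS against 40.4 ± 4.37% in DLS, and 32.02 ± 2.12% in wild-type DMS against 38.8 ± 3.42% in DLS. Cacnb2 was also lower in both genotypes (-0.31 and -0.38, adjusted p = 0.000382 and 2.76e-05). In every library the value of Gm13268, which lies inside the span of Cacnb2, was no higher than that of Cacnb2, and Gm13268 itself was not called. The remainder of Cacnb2 after subtracting Gm13268 had medians of 1200 in Foxp2hum/hum DMS against 1920 in DLS, and 1260 in wild-type DMS against 2300 in DLS. Whether these genes share counted reads was not tested, so the remainder need not be the signal of Cacnb2 alone. Cacnb1 was called over both genotypes together (-0.26 ± 0.08, adjusted p = 0.00729), a call that ended under quantile normalisation (adjusted p = 0.0614) and with Ttr as a covariate (0.282). Cacnb4 was not called.

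Of the alpha2delta subunits, Cacna2d3 and Cacna2d4 were lower in both genotypes. Cacna2d3 had medians of 4314 in Foxp2hum/hum DMS against 5351 in DLS, and 4206 in wild-type DMS against 5162 in DLS (log2 -0.31 and -0.30, limma, adjusted p = 0.000322 and 0.000663). Gm6043, inside its span, had a value at a median 38.8% of that of Cacna2d3 over all libraries, and the remainder had medians of 2500 in Foxp2hum/hum DMS against 3200 in DLS, and 2530 in wild-type DMS against 3350 in DLS. Whether Gm6043 and Cacna2d3 share counted reads was not tested, so this remainder need not be the signal of Cacna2d3 alone. Cacna2d4 differed more, with 839.5 to 1226 in Foxp2hum/hum DMS (median 1020) against 1285 to 2042 in DLS (median 1806), which did not overlap, and 907.1 to 1499 in wild-type DMS (median 1066) against 1229 to 2420 in DLS (median 1973), which did. The reads of Cacna2d4 cannot be told apart from those of Lrtm2, a gene for a leucine-rich repeat membrane protein inside its span. The deposited value of Lrtm2 stood at 93.3% to 99.4% of that of Cacna2d4, and the remainder had medians of 35.2 in Foxp2hum/hum DMS against 45.7 in DLS, and 39.3 in wild-type DMS against 57.3 in DLS. The log2 differences of the deposited Cacna2d4 value, -0.75 and -0.76, stood beside -0.76 and -0.77 for Lrtm2. Cacna2d1, a binding site of gabapentin, was called over both genotypes together (-0.23 ± 0.09, adjusted p = 0.0322), a call that ended under quantile normalisation (adjusted p = 0.107) and without library 26, 34, 76 or 89 (adjusted p from 0.0503 to 0.0578). Cacna2d2 was not called.

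The gamma subunits split. Cacng2, or stargazin, and Cacng4, both of which carry AMPA receptors to the synapse, were lower in DMS: Cacng2 had medians of 1027 in Foxp2hum/hum DMS against 1464 in DLS and 1081 in wild-type DMS against 1432 in DLS (log2 -0.42 and -0.47, limma, adjusted p = 0.00382 and 0.00203), and Cacng4 2478 against 3288 in Foxp2hum/hum and 2542 against 3458 in wild-type (-0.41 in both, adjusted p = 0.00263 and 0.00511). Cacng5, a less abundant relative, was higher in DMS in Foxp2hum/hum, with 62.3 to 159.6 normalised reads in DMS (median 93.5) against 37.03 to 82.6 in DLS (median 65.6). In wild-type mice, Cacng5 had 55.3 to 138.9 in DMS (median 85.5) against 48.3 to 110.3 in DLS (median 68.5). The log2 difference was 0.75 ± 0.16 in Foxp2hum/hum (adjusted p = 0.000268) and 0.22 ± 0.16 in wild-type (adjusted p = 0.402); the interaction of genotype and region was 0.53 ± 0.23 (limma, adjusted p = 1), so a difference between the genotypes is not shown. Cacng1, a subunit of skeletal muscle, Cacng3, Cacng7 and Cacng8 were not called.

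Hcn2, an HCN channel strongly modulated by cyclic AMP, was lower in DMS. In Foxp2hum/hum mice, Hcn2 ran from 1473 to 2212 normalised reads in DMS (median 1905), against 2347 to 4412 in DLS (median 3107). In wild-type mice, Hcn2 ran from 1602 to 2644 in DMS (median 2041), against 2475 to 3625 in DLS (median 3078). The Foxp2hum/hum regions did not overlap, and in wild-type 10 of 11 DMS libraries were below every DLS library. Hcn2 was 1.62-fold lower in DMS in Foxp2hum/hum (log2 -0.70 ± 0.08, limma, adjusted p = 5.79e-09) and 1.58-fold lower in wild-type (-0.66 ± 0.09, adjusted p = 7.16e-08). Hcn3 was called over both genotypes together and was higher in DMS (0.35 ± 0.12, adjusted p = 0.0194), a call that ended under quantile normalisation (adjusted p = 0.0966) and with Ttr as a covariate (0.167). Hcn4 was not called.

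Over both genotypes together, 24 members were called, beside 31.8% of all genes: 21 were lower in DMS, beside 15.3% of all genes, and 3 higher, beside 16.5%. The medium spiny neuron marker list moved with these calls: 7 of its 9 genes were lower in DMS in both genotypes, among them Drd2 (-0.69 in Foxp2hum/hum and -0.64 in wild-type), while Penk and Tac1 were not called in either. Of the 4 genes of the parvalbumin interneuron list, 2 were lower in DMS in both genotypes, Pvalb (-2.67 and -2.17) and the potassium channel gene Kcnc2 (-0.74 and -0.65). Kcnc1 was not called in either genotype (-0.42 and -0.28), and Pthlh, at 0.22 in Foxp2hum/hum, was higher in wild-type (0.50, adjusted p = 0.0244). Both measured cholinergic markers, Chat and Slc5a7, were lower in both genotypes. With the summed medium spiny neuron markers as a covariate, which do not overlap between the regions and which were added as a covariate after the data had been seen, 4 members were called in Foxp2hum/hum and 3 in wild-type. The share of all genes called in that fit is not given here, so the counts do not show whether the drop is particular to the members. In that fit, Cacnb3 kept its call in both genotypes (-0.58 and -0.45, adjusted p = 0.00223 and 0.0351), as did Cacnb2 (-0.49 and -0.57, adjusted p = 0.0137 and 0.00596), and Hcn2 kept it in Foxp2hum/hum (-0.60, adjusted p = 0.0246) but not in wild-type (-0.55, adjusted p = 0.0606). Scn1a stood at -0.60 and -0.70 (adjusted p = 0.0817 and 0.0546), and Scn4b at -0.09 in both (adjusted p = 0.815 and 0.834). With Ttr and Ccdc153 as covariates, 1 member, Cacnb3 in Foxp2hum/hum, was called in a single genotype (-0.64 ± 0.17, adjusted p = 0.025); Ccdc153 also separates the regions without overlap, so that this fit has little left to estimate a regional difference from, and the median SE of the members was 0.34 in Foxp2hum/hum against 0.14 without covariates. How much of the members' difference follows the mix of cells was not tested further.

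The genes that work with these channels were examined in 5 lists. Of all genes tested, 6.67% were lower in DMS in both genotypes and 6.36% higher. The lists are short, so single calls are given as values of those genes and not as a trait of a list. Of 12 genes of calcium extrusion and intracellular release, 8 were lower in DMS in both genotypes and 1 higher. The lower ones included Ryr2, a calcium release channel of the endoplasmic reticulum (-1.07 in Foxp2hum/hum and -1.17 in wild-type), Atp2b1, a plasma membrane calcium pump (-0.91 and -0.93), and Slc8a3, a sodium-calcium exchanger (-0.88 and -0.99); the higher one was Atp2b4, another pump (0.96 and 1.03). Of 10 partners of sodium channels and of the axon initial segment, Fgf14, an intracellular modulator of the pore, was lower (-0.42 and -0.29) and its relative Fgf11 higher (0.57 and 0.56) in both genotypes. Of 11 partners of calcium channels, Cabp1, a calmodulin-like regulator (-0.58 and -0.68), and Rimbp2, a scaffold of the presynaptic active zone (-0.74 and -0.71), were lower in both. Of 4 HCN partners, Pex5l, also called TRIP8b, which controls HCN trafficking and cyclic AMP gating, was lower in both (-0.50 and -0.52). Of the 4 genes of the sodium leak channel complex NALCN, Fam155a was lower (-0.80 and -0.98), while the pore gene Nalcn had -0.07 in both genotypes and was not called.

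The second comparison asked whether the humanised allele changes the members. With limma, 0 members were called between Foxp2hum/hum and wild-type in DMS, in DLS, or over both regions, as were 0% of all 19561 genes in each of these contrasts, and 0 for the interaction of genotype and region (0%). At an unadjusted p under 0.05 there were 2 members in DMS (3.58% of all genes), 2 in DLS (4.31%), 6 over both regions (8.58%) and 1 for the interaction (1.64%); edgeR and DESeq2 on the recovered reads also called 0 members in these contrasts, and of all genes DESeq2 called 3 in DLS. Scn4b had a median of 12370 in Foxp2hum/hum and 12900 in wild-type DMS (log2 difference -0.08, 95% interval -0.32 to 0.16), and 23400 in Foxp2hum/hum and 24940 in wild-type DLS (-0.12, -0.37 to 0.12). Hcn2 had a median of 1905 in Foxp2hum/hum and 2041 in wild-type DMS (-0.05, -0.23 to 0.12), and 3107 in Foxp2hum/hum and 3078 in wild-type DLS (-0.01, -0.19 to 0.16). These intervals leave out changes of 1.5-fold in either direction, as did those of 27 of the 38 members in DMS (71.1%, beside 71.7% of all genes tested), 25 in DLS (65.8%, beside 70.1%) and 34 over both regions (89.5%, beside 84.4%).

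**Figure D4:**
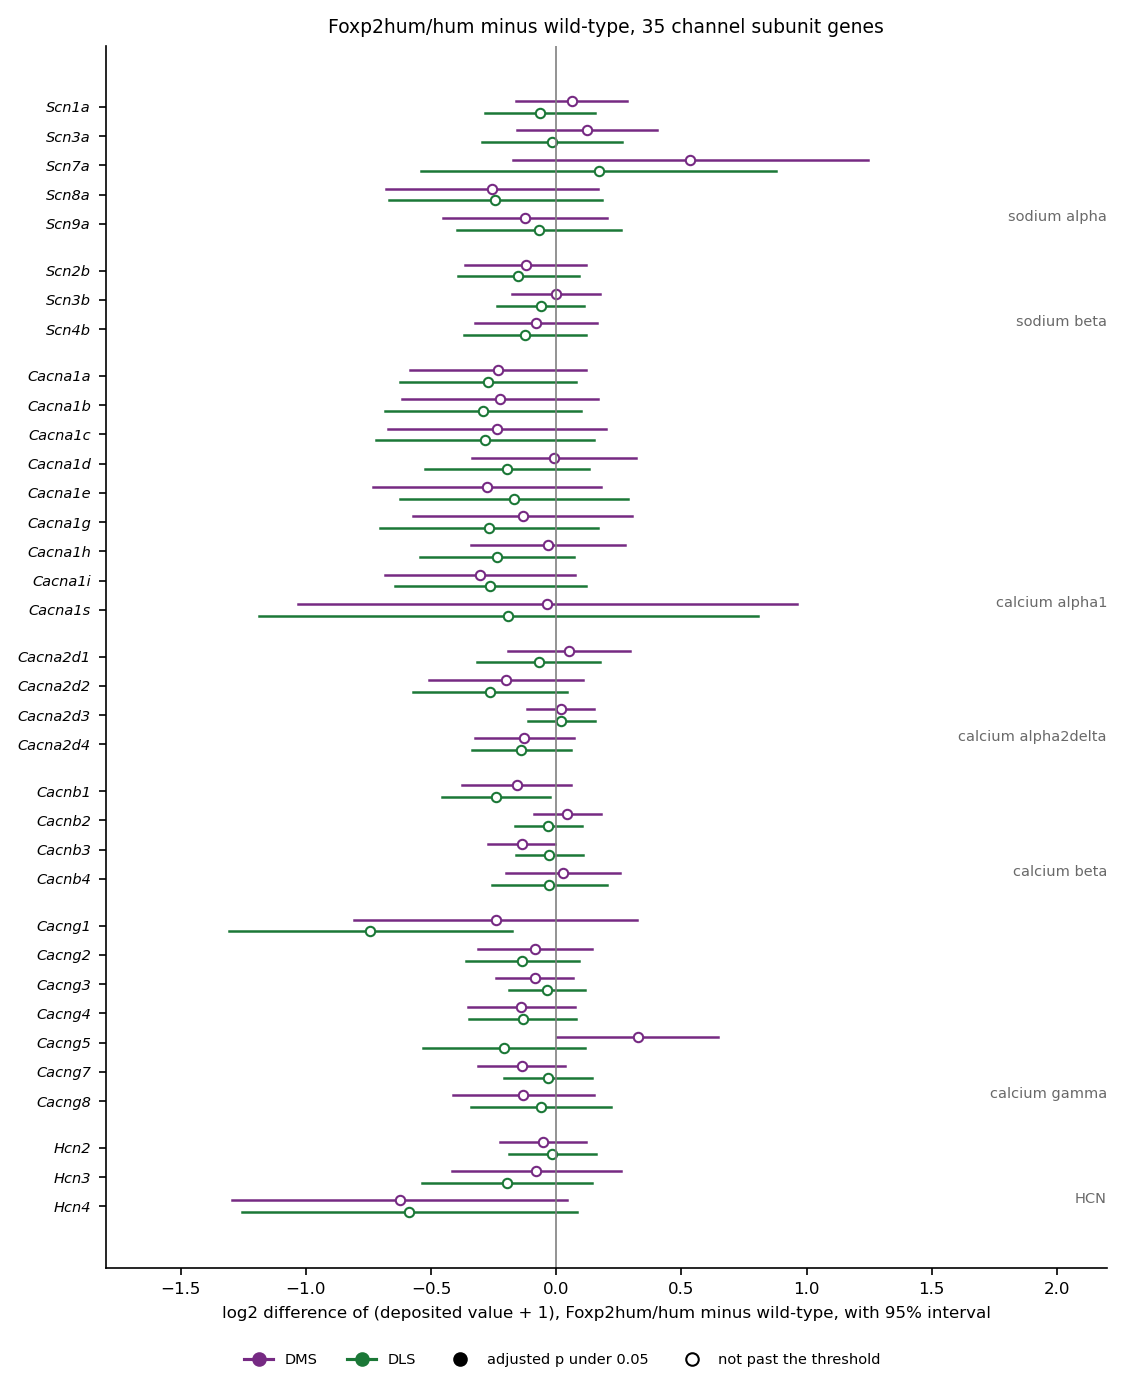
Difference between Foxp2hum/hum and wild-type for 35 of the 38 channel subunit genes, as log2 of the deposited value plus 1, with its 95% interval, in DMS (purple) and DLS (green). No point is filled, since none has an adjusted p under 0.05; the points lie below 0 for 26 of those drawn in DMS and 33 in DLS.

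In DMS, the 3 members with the smallest p among the negative differences were Cacnb3 (-0.14 ± 0.07), Hcn4 (-0.62) and Cacna1i (-0.30), and the 3 among the positive ones were Cacng5 (0.33 ± 0.16), Scn7a (0.54) and Scn3a (0.12), with a limma adjusted p of 0.955 for each. In DLS, Cacng1 had -0.74 ± 0.28, with 10.2 to 76.4 normalised reads in Foxp2hum/hum against 36.8 to 91.3 in wild-type, and Cacnb1 had -0.24 ± 0.11. Hcn4 had -0.59 there (limma, adjusted p = 0.843 for all 3 genes), and on the positive side Scn7a had 0.17 and Cacna2d3 0.02. Over both regions the smallest p-values were those of Cacnb1 (-0.20 ± 0.08), Hcn4 (-0.61 ± 0.24) and Cacng1 (-0.49 ± 0.20), each with a limma adjusted p of 0.574. Among the positive differences the smallest p-values were those of Scn7a (0.35), Cacng5 (0.06) and Scn3a (0.05). Hcn4, the pacemaker channel of the heart, had medians of 17.5 in Foxp2hum/hum DMS and 24.3 in wild-type DMS, and 16.8 in Foxp2hum/hum DLS and 23.2 in wild-type DLS, with wide overlap. The choroid plexus marker sum had a median of 987.6 in Foxp2hum/hum DMS and 312.0 in wild-type DMS, with overlapping ranges, and its part in the DMS values was not tested beyond the covariate fits, which called 0 members.

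The members leaned to one side without reaching the threshold. Their median log2 difference was -0.10 in DMS and -0.14 in DLS, against 0.00 and -0.01 over all genes, and the difference was negative for 28 of 38 in DMS (73.7%, against 49.9% of all genes) and 35 of 38 in DLS (92.1%, against 52.0%). All 9 alpha1 genes were negative in both regions. These genes are measured in the same libraries and vary together, so the counts are a description and no test. For the interaction, Cacng5 (0.53), Cacng1 (0.50) and Cacna1h (0.20) had the smallest p on the positive side and Cacnb3 (-0.11), Cacng7 (-0.10) and Cacng3 (-0.05) on the negative side, and Scn4b (0.04) and Hcn2 (-0.04) were near 0.

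The members also differed in how much they varied between libraries of 1 group. The coefficient of variation within groups, averaged over the 4 groups, was 10.01% for Cacna2d3, 10.5% for Cacnb3 and Cacnb2, 13.8% for Hcn2, 18.5% for Scn1a and 19.2% for Scn4b. Among the 28 members with a mean of at least 200 normalised reads it was highest, at 41.03% for Cacna1e, 38.4% for Cacna1c, 34.7% for Scn8a, 32.5% for Cacna1b and 31.3% for Cacna1i. Over these 28 members, the Pearson correlation of this spread with the log10 of exonic length was 0.57, across genes that share the same libraries. The 5 genes with the largest spread had 8817 to 12696 bases of exon, and the 5 with the smallest 1523 to 9224.

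**Figure D5:**
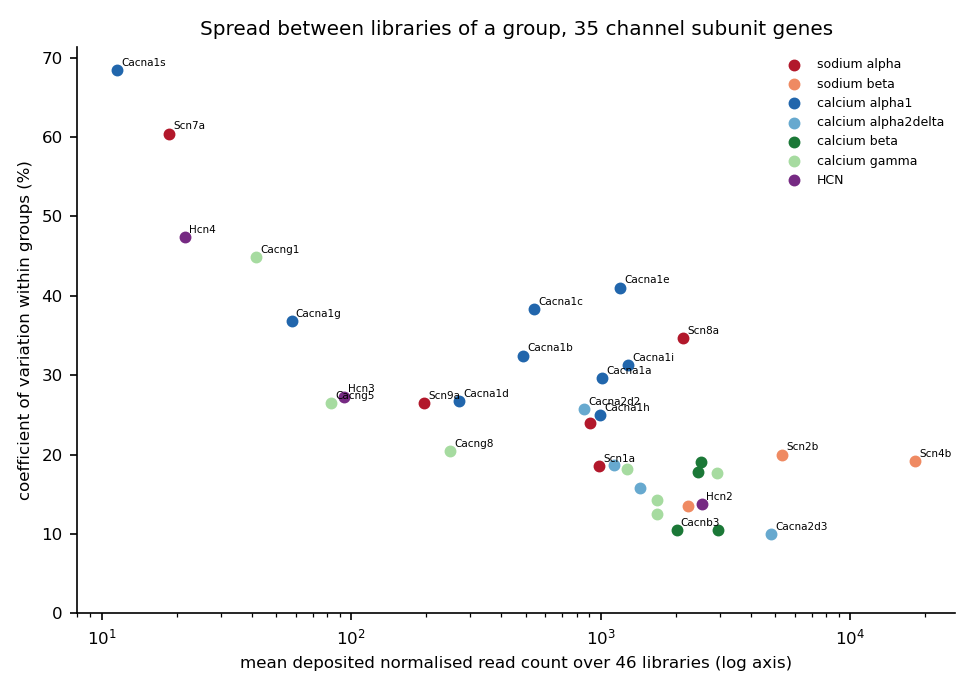
Coefficient of variation within groups (mean over the 4 groups, in percent) of 35 of the 38 genes against its mean deposited normalised read count over 46 libraries, on a log axis. The largest spreads are those of Cacna1s (mean 11.54, 68.4%) and Scn7a (18.61, 60.4%), both of low abundance. A relation of spread to abundance was not computed. Scn8a (mean 2132.87, 34.7%) stands above Cacnb3 of like abundance (2013.82, 10.5%). Cacna1e (1200.03, 41.03%) and Cacna1i (1285.03, 31.3%) stand above Cacng2 (1275.21, 18.2%). Cacna1c (38.4%) and Cacna1b (32.5%) have lower means, of 540.69 and 487.33.

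Those 5 genes ranked the libraries in nearly the same order. Library 94 was the highest of the 12 Foxp2hum/hum DLS libraries for all 5 genes, and library 72 the highest of the 11 wild-type DMS libraries for all 5. In Foxp2hum/hum DMS, libraries 84 and 80 held the 2 highest places for each gene, and libraries 67 and 64 the 2 lowest places. In wild-type DLS, libraries 43 and 51 held the 2 lowest places for each gene, and in Foxp2hum/hum DLS libraries 60 and 61 did. The calls of Cacna1i and Scn8a in the regional comparison were made against this wide spread, which is reflected in SEs of 0.18 to 0.22, against 0.07 for Cacnb3. The share of reads from mitochondrially encoded genes was 11.85% in library 72, the lowest of the 46, and 30.71%, 28.53% and 29.33% in libraries 61, 60 and 51, the highest of their groups, while libraries 94, 84 and 80 had 21.92%, 21.04% and 22.11%, and libraries 67, 64 and 43 had 25.28%, 25.57% and 26.79%. Not all libraries kept to this order. In wild-type DMS, libraries 50 and 34 held the 2 lowest places for each gene, with 26.25% and 21.46%. Library 88 of that group, with a mean rank of 2.6 over the 5 genes, had 23.05%. In Foxp2hum/hum DMS the highest shares were 27.39% in library 87 and 26.79% in library 90, with mean ranks of 5.0 and 7.8. The part of this share in the order of the libraries was not tested.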

How the data were processed

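Per the submitters' processing notes, reads were handled with TopHat 1.4.1, bedtools and DESeq, with mm9 as the build; the sources used here give no other settings. Values deposited by the authors are a size-factor-scaled signal: reads counted per gene, divided by the factor of their library. At a tolerance of 0.01, 100% of the values of every library gave whole reads after division by its recovered step, and the depths come from these reads. Libraries are named by the number in the table's header, which also gives their group.

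Genes with a mean of at least 10 were tested with limma 3.58.1 in R 4.3.3 on log2(value + 1), with the 4 group means in one fit, a mean-variance trend and Benjamini-Hochberg adjustment over 19561 genes. Fold changes are on that scale, which understates those of low genes. The test was also run on simulated data in which genes were drawn independently of each other. Such data lack the library order that members shared here, so no conclusion is drawn from that run. Alternatives were edgeR 4.0.16 and DESeq2 1.42.0 on the recovered reads, other scalings, filters, pseudocounts, weights and covariates, and leaving out each library. Exonic lengths and overlaps come from the GENCODE annotation on mm9, which held 25023 of the 25259 row names. Overlaps were taken from the start and end of each gene, and whether exons overlap was not tested. The counting is not stated to use strand, so reads of overlapping genes cannot be told apart. The members and all lists were chosen with earlier results of these data known. Scn4b, Hcn2 and all members called in both genotypes are named with values, members called elsewhere with their difference, and for the genotype contrasts the 3 members with the smallest p in each direction. Counts are over all 38 members, of which 3 are not reported by name here or drawn.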

Additional observations from a re-analysis of the deposited data

How the results depend on the processing

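Apart from the covariate fits, the number of members called between the regions stayed within 14 to 20 in Foxp2hum/hum, 14 to 19 in wild-type and 18 to 27 over both genotypes, and without any 1 library within 14 to 17, 13 to 19 and 21 to 26; the genotype contrasts and the interaction gave 0 members in every fit run. Ttr alone as a covariate ended the calls stated above for that fit, among them both calls of Scn8a. With Ttr and Ccdc153 as covariates the counts were 1, 0 and 1, and with the summed medium spiny neuron markers, a covariate chosen after seeing the data, 4, 3 and 6. The shares of all genes called under these settings are not given here, so the counts do not show whether the members differ from other genes in this. With the span of the gene as length, the leading gene per kb was the same in 4 of the 7 classes.

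With Ttr and Ccdc153 as covariates the log2 difference between the regions changed sign in Foxp2hum/hum for Cacng4 (0.22), Cacna1i (0.0288), Scn8a (0.51), Scn2b (0.23) and Scn9a (0.0341), in wild-type for Cacng4 (0.31), Cacna1i (0.22), Scn8a (0.73), Scn3b (0.26) and Scn2b (0.33), and over both for Cacng4 (0.26), Cacnb1 (0.36), Cacna1i (0.13), Scn8a (0.62), Cacna1h (0.71), Cacna2d1 (0.44), Scn3b (0.25), Scn2b (0.28) and Scn9a (0.12). With the medium spiny neuron sum it did so in Foxp2hum/hum for Scn8a (0.18), Scn2b (0.14) and Scn9a (0.25), in wild-type for Scn8a (0.24), Scn3b (0.40) and Scn2b (0.14), and over both for Cacna1g (0.0918), Cacnb1 (0.37), Scn8a (0.21), Cacna1h (0.37), Cacna2d1 (0.47), Scn3b (0.42, adjusted p = 0.0436), Scn2b (0.14) and Scn9a (0.30). The cause was not tested.

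Uncalled differences near 0 also changed sign. In DLS, Foxp2hum/hum minus wild-type with Ttr and Ccdc153 was -0.0825 for Scn7a, -0.0054 for Cacna2d3, 0.0593 for Scn4b and 0.0885 for Hcn2, over both regions 0.0113 for Scn4b and 0.0366 for Hcn2, and the interaction of Scn4b was -0.10, or -0.001 with the medium spiny neuron sum. Hcn2 in DLS was 1e-04 without libraries 70 and 72, 0.0016 with edgeR and 2e-04 with DESeq2, and its interaction 0.0016 with array weights. Without any 1 library, the difference in DLS ran from -6e-04 to 0.0502 for Cacna2d3, -0.0618 to 0.0209 for Hcn2 and -0.0331 to 0.279 for Scn7a, and the interaction from -0.0734 to 0.0093 for Hcn2 and -0.0208 to 0.102 for Scn4b.

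No paired analysis was possible because the labels give no replicate number or animal that links libraries across groups. Depth limits the members of a few reads, such as Scn7a in DLS, Cacna1s and Hcn4.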
